A study of Melitaea cinxia with 170 samples.

Results

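A set of 60 gene models of the Glanville fritillary butterfly (Melitaea cinxia) was selected because their thorax transcripts had a higher median in flown than in control butterflies about 20 h after a flight treatment, in both island populations, without such a rise at 1 h over all butterflies. The 60 members were drawn from 16667 gene models, of which 4920 averaged at least 5 CPM (a gene's read count per 1000000 counts of the butterfly) and 3754 of those were eligible. A gene model was eligible when R1 was under 0.3 over all butterflies. R1 and R20 are log2 ratios of the median CPM in flown butterflies to the median CPM in controls at 1 h and at 20 h, with 0.5 CPM added to each median. The members are the 60 eligible gene models with the highest minimum of R20 in AL and R20 in PT. The measured values of R1 and R20 therefore chose the members, and all ratios of flown to control butterflies at these times, pooled or by island, are given as a description, with no support drawn from them.

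The flight muscles, which fill most of an insect's thorax, run at very high rates of energy use during flight. A transcript's level some hours after an activity reflects both how fast its RNA is made and how fast it is broken down, so an RNA level measured at a late time does not date the moment at which synthesis changed. In whole thorax RNA, a larger number of cells of a type and more RNA per cell cannot be told apart. The gene models carry project identifiers that could not be paired with names, so no function is given for any member, and markers of flight muscle or of other tissues could not be checked.

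RNA of the thorax was sequenced from 85 butterflies of islands in the Baltic Sea, 40 from AL (Åland) and 45 from PT (Pikku Tytärsaari), of which 32 were males and 53 females. At 1 h after the start there were 29 flown butterflies (13 AL, 16 PT) and 13 controls (6 AL, 7 PT). At 20 h there were 30 flown butterflies (15 AL, 15 PT) and 13 controls (6 AL, 7 PT). Controls were moved to the same conditions without being flown, and both groups frozen at 20 h had spent the night in individual cages with food. Ages were not among the labels used. Each butterfly gave libraries of 450 nt and 650 nt average insert, and the summed totals per butterfly lay between 1820059 and 6944328 counts, so 3 counts correspond to between 0.432 and 1.65 CPM.

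A single butterfly stood apart from its label on the members. In PT female control 4 at 1 h, 44 of the 60 members were at or above the median of PT butterflies flown 20 h earlier, against 7 to 17 members in the other PT controls at 1 h. The count was 44 in its 650 nt library alone and 37 in its 450 nt library alone, at a summed depth of 2188992 counts, the lowest of the 1 h controls. With that butterfly left out, 49 of the 60 members were chosen again by the rule, and 10 of the members had a pooled R1 of 0.3 or more. The median R1 of the members in PT was 0.13 without it and -0.03 with it. At the other end, PT male 6 flown 20 h earlier had 8 members at or above the flown median of PT, at 5932678 counts, and without that butterfly 55 of the members were chosen again.

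Most members had few counts. CPM is not per length of the transcript, so it orders gene models by counts and not by molecules. The members' mean over all butterflies lay between 5.00 and 1382 CPM (median 10.8 CPM), against a median of 21.4 CPM for all eligible gene models. Of the 60, 27 averaged under 10 CPM, 26 between 10 and 100 CPM, and 7 over 100 CPM. The median count per butterfly ranged from 5 to 3814 between members, and 27 members were at 0 counts in at least 1 butterfly. All 60 passed the filter on low counts. Together the members took 0.229% to 2.01% of the counts in butterflies flown 20 h earlier (median 0.580%), against 0.180% to 0.559% in 20 h controls (median 0.277%). At 1 h they took 0.175% to 0.651% in flown butterflies (median 0.290%) and 0.177% to 0.757% in controls (median 0.30%).

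The minimum of R20 in AL and PT, which set the choice, ranged from 0.79 to 2.52 among the members with a median of 0.91, and it was at least 1 in 22 of them. Among all eligible gene models this minimum was above 0 in 26.8%. R20 of the members had a median of 1.11 in AL and 1.04 in PT, and it was larger in AL for 36 of the 60. The eligible gene models as a whole did not centre on 0, with median R20 of 0.25 in AL and -0.16 in PT. When CPM was computed on library totals scaled by the trimmed mean of M values (TMM), the eligible medians were -0.04 in AL and -0.06 in PT, and those of the members were 0.74 in AL and 1.10 in PT. All 60 members kept R20 above 0 in both islands under that scaling, with a lowest minimum of 0.31.

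**Figure D1:**
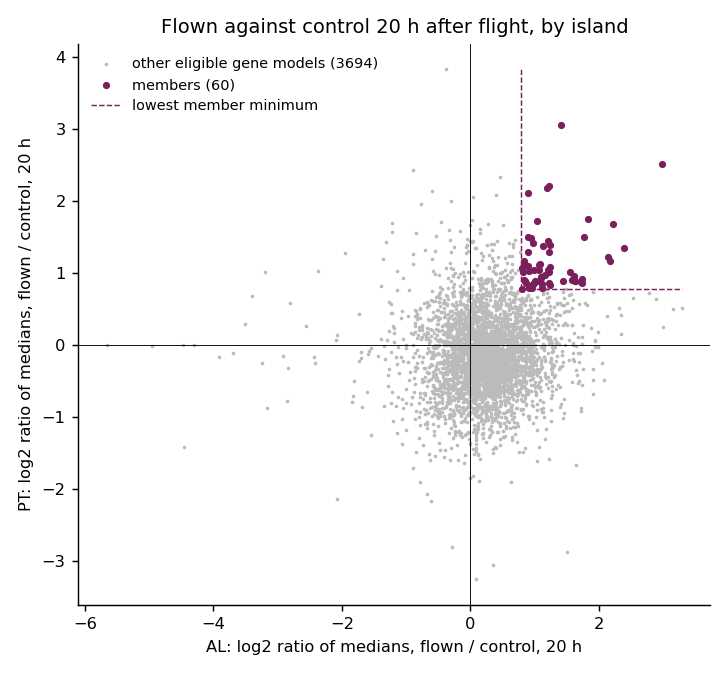
Each point is an eligible gene model, with R20 in AL on the horizontal axis and R20 in PT on the vertical axis (log2 ratio of flown to control medians at 20 h); members are dark and dashed lines mark the lowest minimum among them, 0.79. The 60 members fill the upper right corner by construction, and the cloud of the other gene models is centred above 0 in AL and below 0 in PT.

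The limit of the rule cut through a continuous range of values. The last members inside it were MCINXTMP_011439, with R20 of 1.11 in AL and 0.79 in PT, and MCINXTMP_014434, with 0.80 in AL and 0.79 in PT. The first gene models outside it were MCINXTMP_015029, with 1.19 in AL and 0.78 in PT, and MCINXTMP_015923, with 1.15 in AL and 0.78 in PT. For MCINXTMP_011439 the pooled ratios differed from those within islands. Over all butterflies its R20 was -0.07 and its R1 was -0.89, whereas within AL and PT its R1 was 0.06 in each.

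The highest minimum of R20 belonged to MCINXTMP_011164, a transcript close to the detection limit in most butterflies that were not flown 20 h earlier. In AL, flown butterflies at 20 h ranged from 0.432 to 250 CPM (median 6.66), against 0.150 to 5.69 CPM in controls (median 0.405). In PT, flown butterflies at 20 h ranged from 0 to 59.6 CPM (median 5.31), against 0 to 1.93 CPM in controls (median 0.510). The groups overlapped in both islands, and 8 of 15 flown AL and 11 of 15 flown PT butterflies lay above the highest control of their island. At 1 h the transcript had a median of 0.313 CPM in 29 flown butterflies and 0.311 CPM in 13 controls. The control medians lay at or under the level that 3 counts give, so the ratios, 2.98 in AL and 2.52 in PT, depend on the added 0.5 CPM. The fit of edgeR, which models the counts, gave a log2 difference at 20 h of 3.82 ± 0.86 (SE; adjusted p = 0.00882 by edgeR). The 20 h values chose the members, so this p-value and those of other single members at 20 h are a description, not a test.

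MCINXTMP_009508 came next and was well above the detection limit in every butterfly. In AL it ranged from 48.9 to 244 CPM in flown butterflies at 20 h (median 82.5), against 16.4 to 54.2 CPM in controls (median 22.9). In PT it ranged from 28.1 to 196 CPM in flown butterflies at 20 h (median 67.2), against 15.4 to 60.3 CPM in controls (median 19.6). Flown butterflies lay above the highest control in 14 of 15 cases in AL and 8 of 15 in PT. At 1 h the medians were 29.7 CPM in flown butterflies and 24.5 CPM in controls. Its log2 difference at 20 h was 1.34 ± 0.22 (SE; adjusted p = 0.000363 by edgeR).

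MCINXTMP_006587 was the 1 member whose groups did not overlap in an island. In AL all 15 flown butterflies at 20 h, at 69.9 to 451 CPM (median 156), lay above all 6 controls, at 12.6 to 53.9 CPM (median 29.3). Of the 3754 eligible gene models, 0.16% were separated in this way in AL, and 0.0266% were in PT, where no member was. In PT it ranged from 22.9 to 195 CPM in flown butterflies at 20 h (median 63.9), against 16.1 to 54.3 CPM in controls (median 24.8), with 10 of 15 flown butterflies above the highest control. At 1 h the medians were 36.6 CPM in flown butterflies and 37.7 CPM in controls, so the 20 h controls, at a median of 27.6 CPM, were not above them. The log2 difference at 20 h was 1.88 ± 0.32 (SE; adjusted p = 0.000376 by edgeR).

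MCINXTMP_003875 differed by less, but with little spread between butterflies. In AL it ranged from 275 to 800 CPM in flown butterflies at 20 h (median 549), against 224 to 346 CPM in controls (median 277). In PT it ranged from 355 to 1294 CPM in flown butterflies at 20 h (median 653), against 258 to 449 CPM in controls (median 360). Over both islands 25 of 30 flown butterflies were above the highest of the 13 controls, the same number as for MCINXTMP_006587 and the highest number among the members. At 1 h the medians were 330 CPM in flown butterflies and 309 CPM in controls, and the highest value among those controls, 1052 CPM, was that of PT female control 4. Its log2 difference at 20 h was 0.80 ± 0.17 (SE; adjusted p = 0.00384 by edgeR).

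The member with the highest mean CPM was MCINXTMP_000023. In AL it ranged from 550 to 12723 CPM in flown butterflies at 20 h (median 2287), against 500 to 1828 CPM in controls (median 991). In PT it ranged from 461 to 2134 CPM in flown butterflies at 20 h (median 1076), against 434 to 1015 CPM in controls (median 524). In PT the 20 h controls were also below the 1 h controls, whose median was 834 CPM, and the flown butterflies at 20 h were closer to that 1 h level. In AL the 20 h and 1 h controls had similar medians of 991 and 960 CPM, and the median of flown butterflies at 20 h stood above both. Its log2 difference at 20 h was 0.97 ± 0.23 (SE; adjusted p = 0.0127 by edgeR).

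MCINXTMP_009984, with the second highest mean CPM, overlapped widely. In AL it ranged from 512 to 4706 CPM in flown butterflies at 20 h (median 1982), against 357 to 2337 CPM in controls (median 596). In PT it ranged from 115 to 2512 CPM in flown butterflies at 20 h (median 1547), against 262 to 1181 CPM in controls (median 847). The PT controls at 1 h had a median of 1251 CPM, so the median of flown PT butterflies at 20 h exceeded the earlier controls by less than it exceeded the later ones. Its log2 difference at 20 h was 0.99 ± 0.29 (SE; adjusted p = 0.0531 by edgeR), so it was not among the members called at 20 h.

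**Figure D2:**
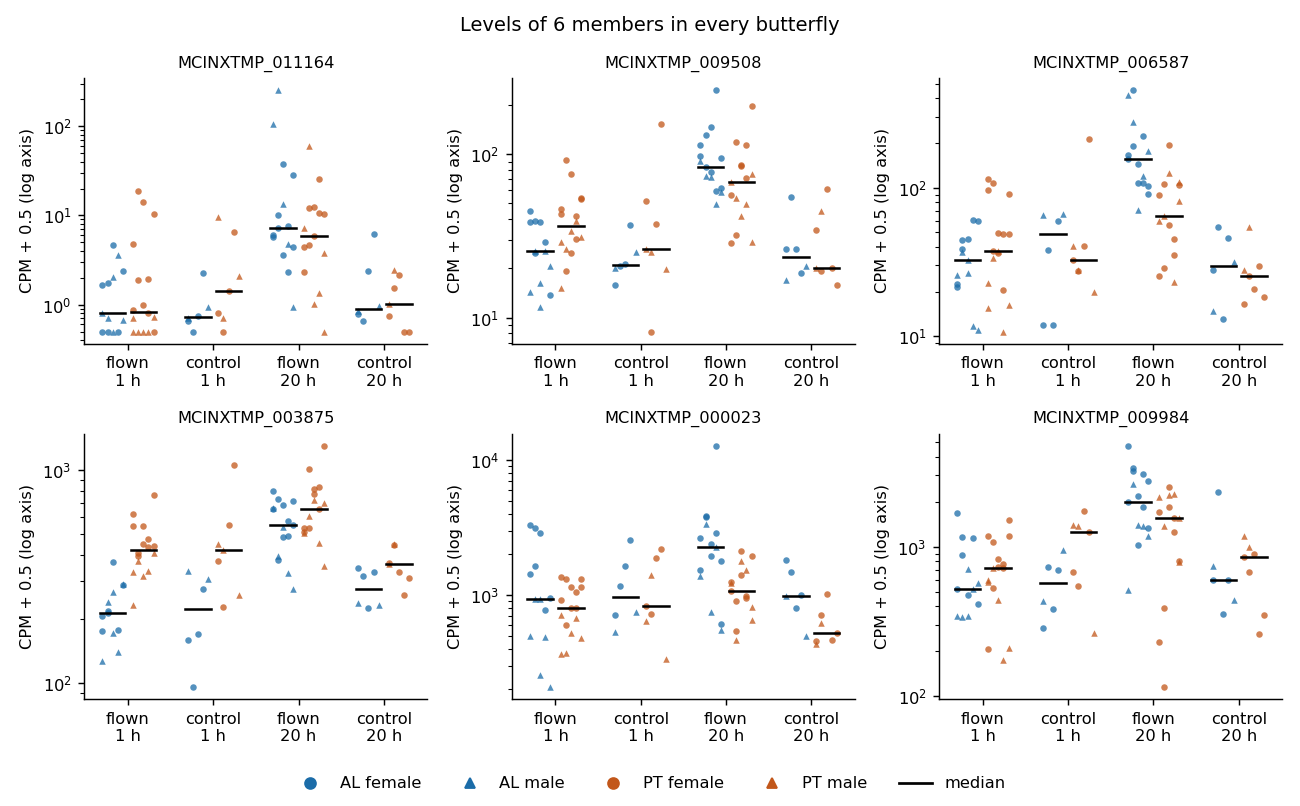
CPM plus 0.5 on a log axis for 6 members in all 85 butterflies, by treatment and time on the horizontal axis; circles are females, triangles males, blue AL and orange PT, and black bars are medians. MCINXTMP_006587 separated the 15 flown AL butterflies at 20 h from the 6 AL controls, whereas the other 5 members had overlapping groups in both islands.

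By the fit over all gene models tested, 19 members were called higher in flown butterflies at 20 h, where 1.09% of the 7643 gene models were called higher. At 1 h 0 members were called by edgeR in either direction, where 0.327% of gene models were called; 2 members had an unadjusted p under 0.05 and DESeq2 called 0. The flight effect was called larger at 20 h than at 1 h for 9 members, where 0.393% of gene models were called higher, and 8 of the 9 were also called at 20 h. These contrasts chose the members, so the shares are printed only as a description. Without PT female control 4 at 1 h, 2 members and 10 of 7770 gene models were called higher for the difference between the times. Without AL male control 1 at 1 h, 4 members and 18 of 7745 gene models were. Without PT female control 4 at 20 h, 12 members and 46 of 7751 gene models were called higher at 20 h. The log2 differences of the members at 20 h ran from -0.08 to 3.82 with a median of 0.98, and 1 member, MCINXTMP_011619, which was singled out after its value was seen, had the negative value.

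A higher ratio at 20 h can come from a higher flown median, a lower control median, or both. On unscaled CPM the members differed in this between the islands. The group medians were not compared on TMM-scaled totals, where the members' median R20 was 0.74 in AL and 1.10 in PT. Over all butterflies the flown butterflies at 20 h had the highest of the 4 group medians in 55 of 60 members, against 35.5% of all eligible gene models. In AL this held for 54 members (47.8% of eligible gene models), in PT for 49 (20.2%), and in both islands for 44. The flown 20 h median exceeded the 1 h control median by 1.20 in AL and 0.62 in PT at the median member, on the log2 scale, against 0.17 and -0.09 for all eligible gene models. The control 20 h median differed from the 1 h control median by -0.12 in AL and -0.40 in PT, against -0.08 and 0.07 for all eligible gene models. The 20 h controls had the lowest of the 4 medians in 23 members in AL (32.1% of eligible gene models) and in 43 in PT (21.2%), and in 18 members in both islands. For the highest and the lowest median, the share of eligible gene models in both islands at once was not counted.

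Since both groups of controls entered the rule, these differences are a description as well. In the fit, 0 members and 0% of all gene models were called between 20 h controls and 1 h controls by edgeR. The unadjusted p was under 0.05 for 310 gene models, 6 of them members, and DESeq2 called 3 gene models and 0 members. PT female control 4 at 1 h, which was high on most members, was 1 of the 7 PT controls behind the 1 h medians.

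**Figure D3:**
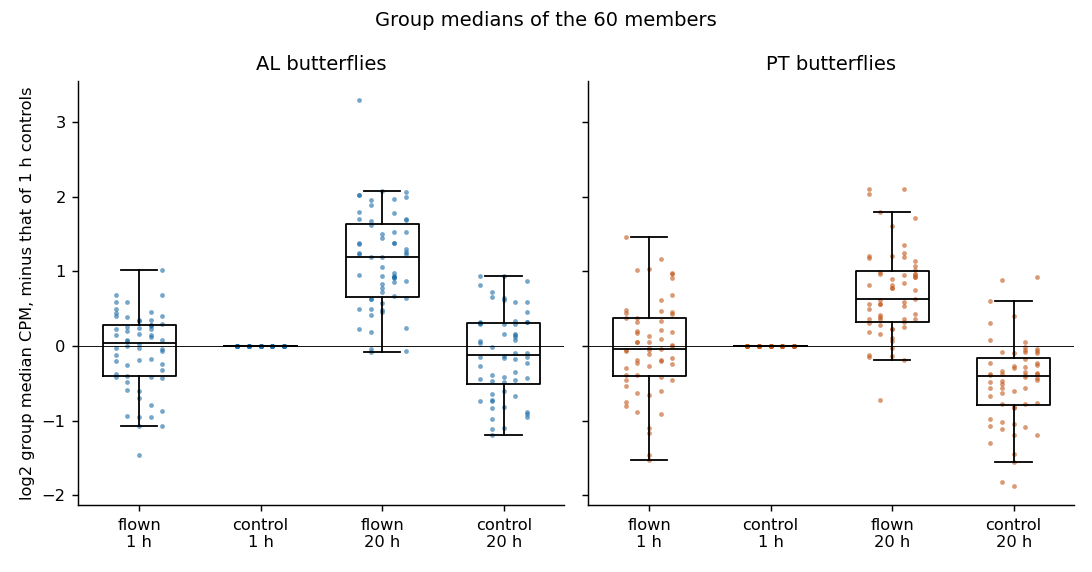
Log2 median CPM of each of the 60 members in 4 groups, minus its median in the 1 h controls of the same island, for AL and PT; points are members, boxes the quartiles and whiskers the range without outlying points. The 1 h controls are at 0 by construction, the flown butterflies at 20 h have median values of 1.20 in AL and 0.62 in PT, and the 20 h controls -0.12 in AL and -0.40 in PT.

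The limit on R1 was applied over all butterflies, and within an island the members were less even at 1 h. R1 ranged from -1.47 to 1.02 in AL (median 0.04) and from -1.53 to 1.46 in PT (median -0.03). It was over 0.3 in 14 members in AL, in 18 in PT, in 6 in both and in 26 in at least 1 island, so 34 of the 60 stayed at or under 0.3 in each island. The same shares over all eligible gene models were not counted, so these counts are not read as a trait of the members. For the other 26, the description of a rise at 20 h alone holds over the pooled butterflies and not in every island.

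The number of members above the controls differed between flown butterflies. Each butterfly flown 20 h earlier was compared with the 20 h controls of its island. These 20 h values chose the members, and the same counts over all eligible gene models were not made. The numbers are therefore a description and not read as a trait of the members. In AL, 15 to 45 of the 60 members (median 30) lay above all 6 controls, and in PT 5 to 38 (median 31) lay above all 7. Members above the control median numbered 38 to 58 in AL and 35 to 58 in PT. In the other direction, 0 to 17 members of the AL controls and 4 to 11 members of the PT controls were at or above the flown median of their island at 20 h. In butterflies flown 1 h earlier the same count was 2 to 30 in AL (median 7) and 9 to 31 in PT (median 13.5), and in 1 h controls it was 5 to 14 in AL (median 10) and 7 to 44 in PT (median 15).

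At the median, flown males had fewer members above the controls than flown females in each island, a difference in counts that was not tested. Most of the flown butterflies whose 20 h values chose the members were females. The share of eligible gene models above the controls was not counted by sex, so the difference is not read as a trait of the members. In AL, 5 males had 15 to 30 (median 26) and 10 females had 27 to 45 (median 35.5). In PT, 6 males had 5 to 32 (median 21) and 9 females had 15 to 38 (median 32). The ranges overlapped in both islands, and the controls behind these counts were 2 males and 4 females in AL and 2 males and 5 females in PT. Depth differed in the other direction, with a median total of 4829154 counts in males and 3576787 in females over all 85 butterflies, and the part of depth in these counts was not tested.

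**Figure D4:**
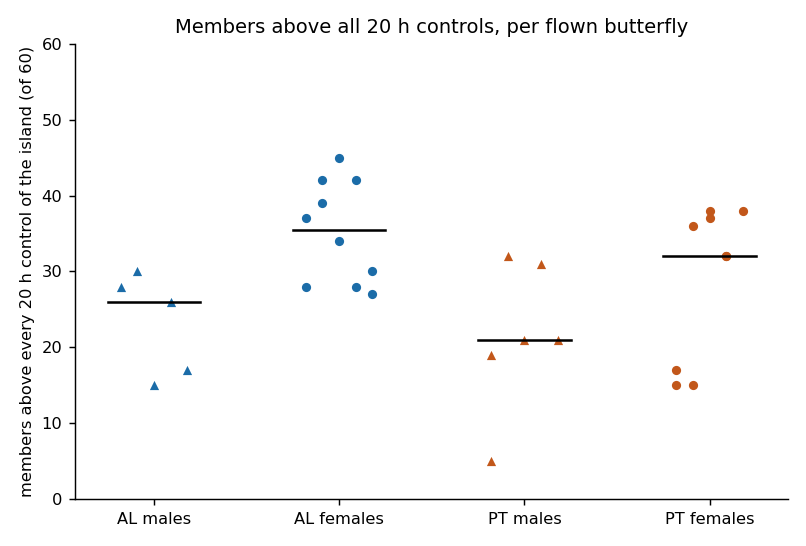
Number of the 60 members above every 20 h control of the same island (vertical axis) for each of the 30 butterflies flown 20 h earlier, by island and sex; bars are medians. AL males had 15 to 30, AL females 27 to 45, PT males 5 to 32 and PT females 15 to 38 members above the controls. The same counts over all eligible gene models were not made.

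The rule pooled the sexes within each island, and the same 20 h values chose the members. Most butterflies behind those medians were females, so the sex difference of the flight effect is not free of the choice and is given as a description. The effect at 20 h had a median log2 difference of 0.80 in males and 1.04 in females over the 60 members, and it was larger in females for 38 of them. The median of the male effect minus the female effect was -0.23 over the members and -0.005 over all gene models tested. By edgeR 0 members and 0% of the 7643 gene models were called for this difference. The unadjusted p was under 0.05 for 639 gene models and 1 member, and DESeq2 called 23 gene models, with 0 members among them. The males behind this test were 11 flown and 4 control butterflies at 20 h, and no difference between the sexes was detectable for a single member at these numbers.

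With sex as a term over all treatments, 14 members were called different in level between males and females. The butterflies flown 20 h earlier, whose values chose the members, are part of that term. The level difference is therefore not free of the flight effect or of the choice. Of the 14 members, 3 were higher in males, or 5.00% of the members against 9.29% of all gene models. The other 11 were higher in females, or 18.3% of the members against 10.2% of all gene models. That excess depended on the libraries used. With 450 nt libraries alone 4 of the 60 members and 526 of 6264 gene models were higher in females. With 650 nt alone 7 members and 631 of 6172 gene models were. The direction was the same within each island for all 14, but the calls rest on these same butterflies, which largely sets that outcome. The difference of these shares from the background was not tested.

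The 2 members with the largest excess in males were MCINXTMP_007092 and MCINXTMP_015961. MCINXTMP_007092 ranged from 0 to 25.3 CPM in 32 males (median 5.19), against 0 to 25.1 CPM in 53 females (median 2.99), for a fitted log2 difference of 0.98 ± 0.33 (SE; adjusted p = 0.0257 by edgeR). That call was lost when AL male control 1 at 1 h was left out (0.84, adjusted p = 0.063 by edgeR) and in the 450 nt libraries alone (0.80, adjusted p = 0.194 by edgeR). MCINXTMP_015961 ranged from 55.9 to 571 CPM in males (median 191), against 29.9 to 729 CPM in females (median 137), for a fitted log2 difference of 0.67 ± 0.15 (SE; adjusted p = 0.000342 by edgeR). The male and female ranges overlapped almost entirely for both.

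The largest excess in females was that of MCINXTMP_005046 and MCINXTMP_016365. MCINXTMP_005046 ranged from 0 to 16.5 CPM in males (median 1.36), against 0.460 to 60.4 CPM in females (median 3.67), for a fitted log2 difference of -1.25 ± 0.30 (SE; adjusted p = 0.000979 by edgeR), and in the 450 nt libraries alone it was -0.68 and not called (adjusted p = 0.295 by edgeR). MCINXTMP_016365 ranged from 0.433 to 16.2 CPM in males (median 2.19), against 0.324 to 51.9 CPM in females (median 8.48), for a fitted log2 difference of -0.98 ± 0.23 (SE; adjusted p = 0.000778 by edgeR). The female median was above the male median for both, and the male and female ranges overlapped.

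The islands differed in the level of 29 members, which was near the share over all gene models. Higher in AL were 14 members, or 23.3% of the members against 24% of all gene models, and higher in PT were 15 members, or 25.0% against 20%. Differences over 2-fold were found for 7 of the members called higher in AL and 7 of those called higher in PT. The share of all gene models called with a difference over 2-fold was not counted. The rule asked for a positive ratio at 20 h within each island and set nothing on the level between islands.

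MCINXTMP_013391 had the largest excess in AL, at 0.606 to 85.1 CPM in 40 AL butterflies (median 18.7), against 0 to 7.41 CPM in 45 PT butterflies (median 1.86), for a fitted log2 difference of 2.98 ± 0.35 (SE; adjusted p = 1.83e-11 by edgeR). MCINXTMP_011128 followed, at 0 to 58.4 CPM in AL (median 10.7), against 0 to 19.2 CPM in PT (median 1.66), for a fitted log2 difference of 2.58 ± 0.32 (SE; adjusted p = 6.11e-11 by edgeR). In PT the medians of both were close to the level of 3 counts.

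In the other direction, MCINXTMP_011439 was at 5.18 to 149 CPM in AL (median 40.8), against 10.5 to 705 CPM in PT (median 198), for a fitted log2 difference of -2.16 ± 0.25 (SE; adjusted p = 2.38e-11 by edgeR). MCINXTMP_007721 was at 0.235 to 42.6 CPM in AL (median 9.36), against 0.367 to 464 CPM in PT (median 21.9), for a fitted log2 difference of -2.13 ± 0.40 (SE; adjusted p = 9.77e-06 by edgeR). Both had AL and PT ranges that overlapped.

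The same measure in butterflies that did not choose the gene models was available by exchanging the islands. When 60 gene models were chosen by R20 in AL alone, among 3791 that were eligible in AL, their median R20 was 1.90 in AL and 0.24 in PT. In PT 36 of the 60 (60.0%) were above 0, against 40.5% of the eligible gene models, whose median was -0.12. In PT 16 of the 60 (26.7%) reached 0.79, the lowest minimum among the members, against 6.78% of the eligible gene models. Of these 60, 11 are members. The median in PT was 0.0641 without PT male control 1, 0.0783 without PT female control 3, 0.160 without PT female control 1 and 0.149 without AL male control 2, all at 20 h.

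When 60 gene models were chosen by R20 in PT alone, among 3306 that were eligible in PT, their median R20 was 1.46 in PT and 0.30 in AL. In AL 37 of the 60 (61.7%) were above 0, against 70.1% of the eligible gene models, whose median was 0.25. In AL 17 of the 60 (28.3%) reached 0.79, against 15.0% of the eligible gene models, and 13 of the 60 are members. The quartiles of the 60 in AL were -0.35 and 0.93. The median in AL was 0.522 without AL female control 2 and 0.197 without PT male control 1, both at 20 h. The median in PT of the 60 chosen on AL was 0.44 on TMM-scaled totals, against -0.04 for the eligible gene models. It was 0.10 with 650 nt libraries alone (eligible -0.14), 0.09 with 450 nt libraries alone (eligible -0.12) and 0.09 with females alone (eligible -0.19). On TMM-scaled totals the median in AL of the 60 chosen on PT was 0.02, against -0.05 for the eligible gene models. With DESeq2's size factors it was -0.006, against -0.05.

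**Figure D5:**
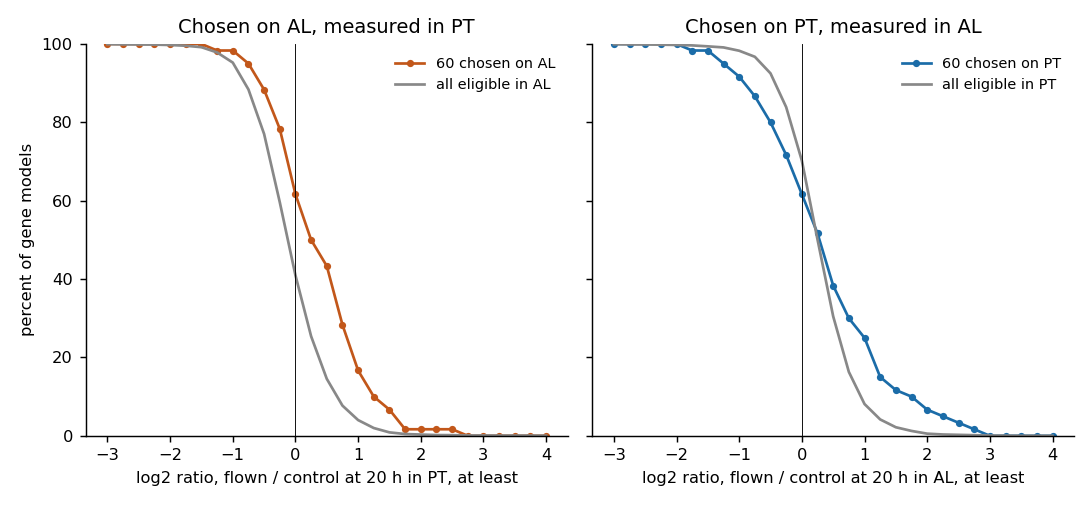
Percentage of gene models (vertical axis) whose log2 ratio of flown to control medians at 20 h is at least the value on the horizontal axis, in the island that did not choose them; points are the 60 chosen on the other island and grey lines all gene models eligible there. In PT the 60 chosen on AL lie to the right of the grey line over most of the range, with medians of 0.24 and -0.12, and in AL the curves cross, with medians of 0.30 and 0.25.

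The libraries of a butterfly measured the same RNA with different inserts, so they show the technical precision of each member. Within groups, the levels of the 650 nt and 450 nt libraries correlated across the 85 butterflies with a median Pearson r of 0.42 over the members and 0.43 over all eligible gene models. This r was between 0.80 and 0.96 in the 7 members over 100 CPM. It had a median of 0.48 in those of 10 to 100 CPM and of 0.29 in those under 10 CPM, and the lowest was -0.15, in a member of 7.27 CPM, MCINXTMP_012615, named after its value was seen. The minimum of R20 was above 0 in 58 members with the 650 nt libraries and in 58 with the 450 nt libraries, and in 56 with both. Both libraries are parts of the summed counts that chose the members, so these signs are largely set by the choice. Only 12 members were among the 60 highest in each library alone.

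Insert size changed the level of 17 members. Higher with 650 nt were 10 members, or 16.7% of the members against 12.1% of all gene models, and higher with 450 nt were 7, or 11.7% against 10%. The largest differences towards 650 nt were those of MCINXTMP_001171, at 1.01 ± 0.10 (SE, log2 of 650 nt over 450 nt; limma adjusted p = 8.87e-15), and MCINXTMP_007722, at 0.69 ± 0.12 (limma adjusted p = 1.4e-06). Towards 450 nt they were those of MCINXTMP_011439, at -0.47 ± 0.08 (limma adjusted p = 1.54e-06), and MCINXTMP_000471, at -0.42 ± 0.12 (limma adjusted p = 0.0038). Every butterfly has both libraries, whose totals ran from 659410 to 4349250 counts. The share of each insert size in the summed counts was not compared between flown and control butterflies.

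The members varied more between butterflies of a group than eligible gene models did at the median, and their correlations were weak. The standard deviation of log2(CPM + 0.5) within groups had a median of 1.07 over the members, with a range of 0.43 to 1.81, against 0.76 over all eligible gene models. Over the 1770 pairs of members the within-group Pearson r had a median of 0.13 and was above 0 in 78.5%, against a median of 0.06 and 64.7% for pairs of eligible gene models. The members were chosen by high ratios of medians from these same butterflies. Their mean CPM was also lower, with a median of 10.8 against 21.4 for eligible gene models. The part of the choice and of the level in the spread and the correlations was not tested. The pair with the highest r was MCINXTMP_008356 and MCINXTMP_014124, at 0.60 over 85 butterflies (Spearman's rho 0.52), and 0.56 without the 2 butterflies farthest from the median.

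The second pair was MCINXTMP_007721 and MCINXTMP_007722, with r of 0.58 and rho of 0.59, and 0.54 without 2 butterflies. These were also the only pair of members with consecutive numbers, and because no positions of the gene models were at hand, it is not known whether they are neighbours or copies that share reads. In PT, MCINXTMP_007721 ranged from 13.7 to 293 CPM in flown butterflies at 20 h (median 69.3), against 1.03 to 74.3 CPM in controls (median 7.84). MCINXTMP_007722 ranged from 0.836 to 57.0 CPM in flown PT butterflies at 20 h (median 18.2), against 0.506 to 8.35 CPM in PT controls (median 3.62). The PT groups overlapped for both. All these correlations share the depth and the libraries of the same 85 butterflies.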

How the data were processed

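The deposited values are raw read counts, whole numbers for each of the 170 libraries and every gene model, which the authors had not normalized. Per the labels' protocols, libraries were strand-specific and anchored at the polyA tail, from total RNA of the thorax. The submitters' processing notes name CASAVA 1.8, TopHat2 2.0.5 and edgeR. Build, annotation and counting tool are not given in the sources used, so reads of overlapping genes or near-identical copies may be split in ways that cannot be seen. The normalized table of the series was not used.

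Counts of both libraries were summed per butterfly, the replicate. Reads carry no molecular identifiers, so the floor of 3 counts covers counting error only. The fits used edgeR 4.0.16 (quasi-likelihood, robust, filterByExpr, TMM) in R 4.3.3 on all 85 butterflies and 7643 gene models, with means of the island by treatment cells and sex as a term. The sex difference of the flight effect was fitted with sex by treatment cells and island as a term. For insert size, limma 3.58.1 was run on the log2 CPM (prior count 2) of the 650 nt minus the 450 nt library of each butterfly. P-values were adjusted by Benjamini-Hochberg over all gene models tested, and a call needs an adjusted p under 0.05. An SE is the log2 difference over the square root of F. Alternatives included DESeq2 1.42.0. The edgeR and limma fits were tested on simulated counts.

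The members, tests and lists were chosen with earlier results of these data known. Named were at most 2 members per ordering and direction: highest minimum R20, highest mean CPM, nearest the limit, most flown butterflies above the highest control, largest called difference by sex, island and insert size, and highest pair correlation. Of the 16667 identifiers, 0 matched the reference table (assembly ilMelCinx1.1), so lists of pathways and cell type markers were not analysed here, and no sequences are shown.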

Additional observations from a re-analysis of the deposited data

Results flagged for a closer look

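Dixon's criterion was applied 246 times to groups of 4 to 10 butterflies. The values were the log2(CPM + 0.5) of each named member, or the numbers of members above the comparison level per butterfly at 20 h. In 16 cases, all on named members, a butterfly lay far from the others, 6 of them high and 10 low. Chance gives about 1 in 20, and the cases share the same butterflies.

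Several of the high values came from single butterflies. PT female 1 flown 1 h earlier had 464 CPM of MCINXTMP_007721 (others 3.64 to 37.2), 64.9 CPM of MCINXTMP_007722 (others 0.987 to 8.28) and 391 CPM of MCINXTMP_015961 (others 75.9 to 146). The same butterfly had 31 of the 60 members at or above the PT flown median at 20 h. PT female control 4 at 1 h had 46.6 CPM of MCINXTMP_001171 (others 11.2 to 12.9). AL female 8 flown 20 h earlier had 79.4 CPM of MCINXTMP_014124 (others 16.9 to 31.6), and AL male 6 flown 1 h earlier had 205 CPM of MCINXTMP_015961 (others 80.5 to 114).

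MCINXTMP_011439 was low in 3 PT butterflies: 10.6 CPM in female 7 flown 20 h earlier (others 188 to 583), 10.5 CPM in female 10 flown 1 h earlier (others 102 to 706) and 10.5 CPM in male 6 flown 1 h earlier (others 115 to 291). Female 7 also had 13.8 CPM of MCINXTMP_000471 (others 41.8 to 94.97). Among AL females flown 20 h earlier, female 4 had 8.79 CPM of MCINXTMP_000471 (others 29.2 to 96.3) and female 6 had 4.95 CPM of MCINXTMP_011128 (others 17.8 to 46.5).

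The other low values were 208 CPM of MCINXTMP_009984 in PT female 6 flown 1 h earlier (others 526 to 1510), 5.79 CPM of MCINXTMP_001171 in PT male 2 flown 1 h earlier (others 9.47 to 12.4), 3.19 CPM of MCINXTMP_014124 in AL female control 1 at 1 h (others 5.80 to 6.18), and 0.324 CPM of MCINXTMP_016365 in PT female control 3 at 20 h (others 5.77 to 10.9), which is under the level of 3 counts.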

How the results depend on the processing

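Membership depended on the settings of the rule. Of the 60 members, the rule chose again 28 on TMM-scaled totals, 28 with DESeq2's size factors, 36 with a mean of at least 2 CPM, 33 with at least 10 CPM, 23 with means of log2 CPM in place of medians, 34 with R1 under 0, 25 with 450 nt libraries alone, 26 with 650 nt libraries alone and 19 with females alone. An offset of 0.1 or 2 CPM kept 56 or 48, R1 under 0.6 kept 42, and leaving out single butterflies of groups of 2 to 5 (31 of them), or PT male 6 flown 20 h earlier, which was added after seeing the data, kept 46 to 55. Over the 12 settings other than left-out butterflies, 37 members were chosen in at least 6 and 1, MCINXTMP_007721, in all. Members called higher at 20 h numbered 11 with 450 nt libraries alone (44 of 6264 gene models tested) and 11 with 650 nt alone (67 of 6172). They numbered 35 by DESeq2 (202 of 15763) and 12 to 27 without single butterflies (46 of 7751 and 134 of 7755). For the difference between the times they numbered 5 with 450 nt alone (16 of 6264), 4 with 650 nt alone (14 of 6172) and 0 with females alone (1 of 7768). Without single butterflies they numbered 2 to 10, with 10 of 7770 gene models at the lowest. Members called by sex numbered 5 with 450 nt alone, where 505 gene models were higher in males and 526 in females. Without single butterflies they numbered 11 to 14 by sex, 25 to 31 by island and 16 to 18 by insert size. With PT female control 4 at 1 h left out (11 and 25 members), 751 of 7770 gene models were higher in males and 678 in females. In that fit 1813 were higher in AL and 1571 in PT. By island, 31 members were called without AL male control 2 at 1 h, with 1836 of 7756 gene models higher in AL and 1551 in PT. By insert size, 16 were called without AL female control 3 at 20 h, with 939 of 7752 higher with 650 nt and 748 with 450 nt. Treated as independent, the libraries gave 2 members by insert size, with 437 gene models higher with 650 nt and 220 with 450 nt. Calls at 1 h, between controls, and for the sex difference in the flight effect were 0 throughout. The median R20 in PT of gene models chosen on AL was 0.0641 to 0.344 without single butterflies, lowest without PT male control 1 at 20 h (0.0641), PT female control 3 (0.0783), AL male control 2 (0.149) and PT female control 1 (0.160), all at 20 h. That in AL of those chosen on PT was 0.197 to 0.522, highest without AL female control 2 at 20 h and lowest without PT male control 1 at 20 h, and it was -0.00625 with DESeq2's size factors, a change of sign under a scaling that put the eligible median at -0.0531. It was below the median of the eligible gene models with a mean of at least 2 CPM (0.215 against 0.241), with 450 nt libraries alone (0.197 against 0.249) with 650 nt alone (0.308 against 0.316), and in 5 of 32 cases without a single butterfly (0.197 to 0.24, against 0.227 to 0.255). The minimum R20 of MCINXTMP_007722 was 0.696 to 1.95 and that of MCINXTMP_014434 as low as 0.516 without single AL controls at 20 h, and that of MCINXTMP_001171 was -0.0044 with 650 nt libraries alone. The causes of these changes were not tested. No paired analysis was possible because the labels give no replicate numbers shared between groups; butterflies were numbered in deposit order. With 13 controls at each time and members of mostly under 100 CPM, depth limits single members under 10 CPM most.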

Other observations

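In 1 h butterflies, the number of members at or above the 20 h flown median of the island was 30 in AL female 2 and 27 in AL female 3, both flown 1 h earlier, and 31 in PT female 1 flown 1 h earlier, against medians of 7 in AL and 13.5 in PT for all butterflies flown 1 h earlier. PT female control 4 at 1 h, with 44, exceeded them all.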
